A study of Mus musculus with 3 samples.

Results

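The cytosolic ribosome is built from ribosomal RNA and a fixed set of proteins, and the genes for those proteins were examined here in single cells of the mouse intestinal epithelium. A gene belonged to the set when its symbol was Rplp0, Rplp1, Rplp2 or Rpsa or began with Rpl or Rps followed by a digit. Symbols marked as pseudogenes by "-ps" and the S6 kinase genes (Rps6k) were left out. This rule took 92 of 51912 features: 31 core genes of the small subunit, 43 of the large subunit, 3 genes of the stalk, 9 paralogs with a known parent gene and 6 other symbols (Rpl37rt, Rpl6l, Rps12l1, Rps3a2, Rps3a3 and Rps19bp1). The gene annotation lists 86 of the 92 as protein-coding. The 6 other symbols were taken by the rule alone, and Rps19bp1 is by its name a protein that binds Rps19. Counts of ribosomal protein genes below include these symbols where they passed the limits.

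The study compared intestinal epithelium with and without Arid3a, a DNA-binding protein of the ARID family. Mice of the genotype VillinCreERT2; Arid3a fl/fl (Arid3a cKO) lose the gene where Villin drives the Cre, and the controls, labelled WT, carry VillinCreERT2 alone, so both groups have the Cre. All animals received tamoxifen at 8 to 10 weeks of age and were harvested 1 month after the first injection. Crypts were dissociated, live Epcam+ CD45- CD31- cells were sorted, and 10x Genomics 3′ libraries were made. Of these, 2 Arid3a cKO libraries (cKO 1 and cKO 2) and 1 WT library were analysed, and where 3 values stand together below they follow the order cKO 1, cKO 2 and WT. The series describes its replicates as biological, and a second WT replicate was not analysed here. Strain and sex were not given in the sources used here.

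A ribosome consists of a small subunit that reads the messenger RNA and a large subunit that joins the amino acids, and core proteins of both are needed in matched amounts. Their messenger RNAs typically begin with a terminal oligopyrimidine (TOP) tract, through which the mTORC1 pathway adjusts their translation with growth. In the intestinal crypt, stem cells (ISC) and the transit-amplifying (TA) cells they give rise to divide and grow, and their descendants differentiate into absorptive enterocytes or into goblet, Paneth, enteroendocrine and tuft cells. A fall in ribosome production as cells leave the crypt is a known feature of differentiation.

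The 3 libraries held 25554 barcodes, of which 5594 (21.9%) had at least 1000 detected genes and at most 15% mitochondrial unique molecular identifiers (UMIs, each standing for 1 captured RNA molecule). Cells kept per library ranged from 1550 to 2134, with 58169310 to 70922480 UMIs, and median UMIs per cell ranged from 29895 to 35764. The part kept was 31.2% of 6845 barcodes in cKO 1, 22.5% of 6893 in cKO 2 and 16.2% of 11816 in WT. Barcodes over the mitochondrial limit made up 66.4%, 75.6% and 79.2%. At most 2 kept barcodes were shared by any pair of libraries. Arid3a itself was sparse, at 0.592, 0.894 and 2.57 CPM (UMIs of a gene scaled to a common library total), lower in both cKO libraries as labelled. The cells fell into 11 clusters that were made without the ribosomal protein genes and the other gene lists described below, and were named from fixed markers. Of 15 ISC markers 13 were highest in the ISC-like class, all 19 enterocyte markers in the enterocyte-like class and all 15 TA markers in the TA-like class. The leading genes of the ISC-like class also included DNA replication genes such as Hells, Mcm3 and Mcm6. The TA-like class was led by histone and mitosis genes such as Hist1h1b, Ube2c and Top2a. The part of the cell cycle in differences between these 2 classes was not tested. A cluster of 981 cells led by Rbp7 met no class. Mitochondrial UMIs made up 4.87% and 4.37% of the cKO libraries and 5.72% of WT, and 14 summed immune markers, of which 13, 14 and 14 were detected, reached 4.34, 20.8 and 37.5 CPM. They sat mostly in an enterocyte-like cluster led by Ms4a18, at 18.3, 166 and 285 CPM, whereas the ISC-like and TA-like classes held at most 1.26 CPM. The part of these differences in the results below was not tested.

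Ribosomal protein genes took a large part of the RNA captured. They accounted for 15.4%, 15.2% and 14.4% of all UMIs, which is 10898545, 8864794 and 9031826 UMIs. Counting error on these shares was small, with an exact binomial 95% interval of 14.3975 to 14.4149% in WT, and such intervals cover counting error only. Single cells differed far more than libraries, from 1.02% at the 5th percentile to 30.3% at the 95th in WT. Barcodes left out for high mitochondrial content but with enough genes held 2.76 to 3.65% ribosomal protein UMIs among their non-mitochondrial UMIs. The 276 symbols marked as ribosomal protein pseudogenes gathered UMIs equal to 0.403 to 0.417% of those of the set.

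The share was highest in the ISC-like class in every library. It was lowest in an enterocyte-like cluster led by Dnase1 in cKO 1 and WT and in Paneth-like cells in cKO 2. In the ISC-like class it was 27.9%, 28.3% and 26.9%. The TA-like class held 24.1%, 24.2% and 24.4%, below the ISC-like class in each library, by 2.54 to 4.09 percentage points. The unnamed Rbp7 cluster followed with 19.2%, 19.2% and 17.8%. Within the enterocyte-like class the Ms4a18 cluster held 10.9%, 9.91% and 9.31%, and the cluster led by S100g, which encodes a calcium-binding protein of absorptive cells, held 4.62%, 4.31% and 3.88%. The Dnase1 cluster was lower still, at 3.49%, 3.501% and 3.07%. These levels did not overlap between neighbouring clusters over the 3 libraries. A further, small enterocyte-like cluster of 59 cells, led by the interferon-induced gene Isg15, held 3.56%, 2.53% and 3.20% and overlapped the Dnase1 cluster. The difference between the ISC-like and the enterocyte-like class was 21.8 percentage points ± 0.695 (SD, n = 3 libraries), or 4.72-fold ± 0.446, and the ISC-like class exceeded the Dnase1 cluster 8.29-fold ± 0.429.

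Secretory and tuft-like cells all lay below the Rbp7 cluster. Goblet-like cells held 13.3%, 13.8% and 12.4%, and tuft-like cells 13.9%, 16.2% and 11.5%. Enteroendocrine-like cells held 10.3%, 9.37% and 6.25%. Paneth-like cells, which make antimicrobial granules and had the largest UMI totals, were among the lowest, at 4.63%, 1.89% and 3.12%. The tuft-like and goblet-like levels overlapped, and so did those of the Paneth-like class and the S100g and Dnase1 clusters. The small classes rest on few cells, with 17 to 34 Paneth-like, 20 to 42 tuft-like and 42 to 88 enteroendocrine-like cells per library.

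**Figure D1:**
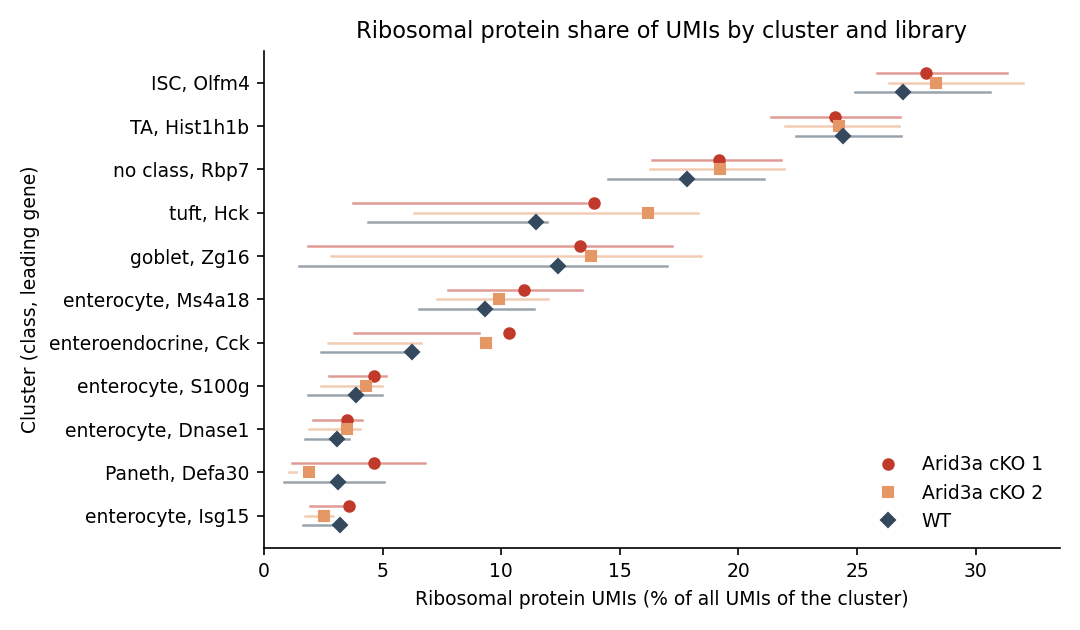
Share of UMIs from ribosomal protein genes (x axis, percent of all UMIs of the cluster) for each of the 11 clusters, labelled by class and leading gene, with 1 symbol per library for the pooled share and a line for the interquartile range over cells. The ISC cluster lies between 26.9% and 28.3% and the Dnase1 enterocyte cluster between 3.07% and 3.501%.

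Ribosomal protein UMIs per cell did not follow the order of the shares throughout. The median ISC-like cell held 7924, 9613 and 7606.5 ribosomal protein UMIs. The median TA-like cell held 10261, 12120.5 and 9568, more than the ISC-like cell in each library although its share was lower. The median enterocyte-like cell held 1398, 1316 and 1092. Paneth-like cells, with a lower share, held more at the median, at 1805.5, 1830 and 1409, whereas enteroendocrine-like and tuft-like cells, with higher shares, held fewer, at 771.5 to 978 and 544.5 to 1177.5. Both subunits took nearly equal parts: the ratio of small to large subunit UMIs was 1.00 to 1.02 in the ISC-like class and 0.924 to 0.953 in the enterocyte-like class.

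Most of the genes contributed to the difference between ISC-like and enterocyte-like cells. UMIs were summed per library and class and tested by edgeR's quasi-likelihood test with library as a block and Benjamini-Hochberg adjustment over all 13045 genes tested. Of the 92 ribosomal protein genes, 87 passed the filter on low counts, and 84 were higher and 1 was lower in the ISC-like class at an adjusted p under 0.05. Over all genes tested, 37.8% were higher and 40.3% lower. The median log2 difference of the 87 genes was 1.64, with a range of -0.66 to 2.52, against -0.02 over all genes. All 31 small subunit genes (median 1.75), all 43 large subunit genes (median 1.58) and all 3 stalk genes (median 1.62) were higher. The 9 paralogs stood apart: of the 6 tested, 4 were higher and 1 was lower, with a median of 0.56. Scaling by total UMIs alone moved the median of all genes to 0.59 and that of the ribosomal protein genes to 2.28, with 86 higher and 0 lower.

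Rpl12, a protein at the base of the stalk, and Rpl3, which lies near the peptidyl transferase centre, showed the largest differences. Rpl12 was at 4315, 3758 and 3785 CPM in the ISC-like class and at 579, 389 and 393 CPM in the enterocyte-like class, a log2 difference of 2.52 (SE 0.186, edgeR adjusted p = 3.8e-12). Rpl3 was at 3431, 3323 and 2944 CPM against 535, 388 and 360 CPM, a log2 difference of 2.31 (SE 0.175, edgeR adjusted p = 6.65e-12). The classes did not overlap for either gene. Rpl27a and Rpl14, both of the large subunit, came next with log2 differences of 2.14 and 2.11. The lowest ISC-like library for Rpl27a was WT at 1799.5 CPM, while the highest enterocyte-like library was cKO 1 at 348 CPM. Rpl14 was at 3216 CPM or more in the ISC-like class and at 615 CPM or less in the enterocyte-like class.

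The stalk recruits the GTPases that drive elongation. Its most abundant transcript was Rplp1, also the highest of the set in the ISC-like class, at 8503, 8071 and 8058 CPM against 2100, 1742 and 1707 CPM in the enterocyte-like class (log2 difference 1.53, SE 0.192). Rplp0, the stalk's anchor, was at 4377, 4394 and 3836 CPM against 987, 825 and 726 CPM (1.69, SE 0.173). Rplp2 was at 3752, 3768 and 4006 CPM against 893, 750 and 788 CPM (1.62, SE 0.162). These levels are UMIs of 3′ tags, which do not scale with transcript length. Rpsa, a small subunit protein also known as the laminin receptor precursor, was at 5092, 5128 and 4750 CPM against 957, 820 and 734 CPM, a log2 difference of 1.95 (SE 0.170). All 4 genes passed the test, with edgeR adjusted p from 7.59e-08 for Rplp1 to 9.01e-11 for Rpsa.

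**Figure D2:**
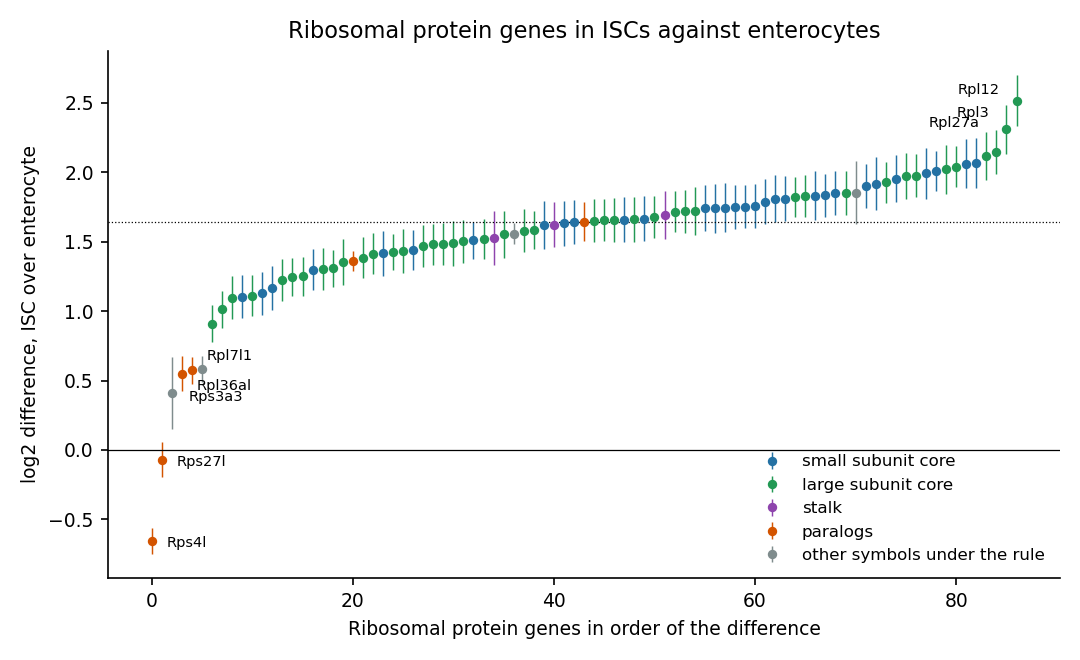
Log2 difference between ISC-like and enterocyte-like cells (y axis) of the 87 ribosomal protein genes tested, in order of the difference (x axis), coloured by group, with bars of 1 SE from the edgeR fit; the dotted line is the median of 1.64. The core and stalk genes are all above 0, and Rps4l (-0.66) and Rps27l (-0.07) are the genes below 0 with TMM; by total UMIs Rps27l lies above 0.

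The lowest differences belonged to paralogs and a minor copy. Rps27l, a paralog of Rps27 known as a p53-induced gene, was at 890, 941 and 926 CPM in the ISC-like class and at 640, 603 and 621 CPM in the enterocyte-like class. The CPM did not overlap between the classes, but its log2 difference was -0.07 (SE 0.129, edgeR adjusted p = 0.636) and turned to 0.56 with total-UMI scaling. Rps4l, annotated as a transcribed processed pseudogene, was at 97.2, 104 and 119 CPM against 111, 96.7 and 117 CPM, overlapping levels, with a log2 difference of -0.66 (SE 0.0926, edgeR adjusted p = 5.12e-07) that was -0.02 and no longer passed the test by total UMIs. Rps3a3 was near the detection limit at 1.07 to 3.05 CPM in either class (0.41, SE 0.26, edgeR adjusted p = 0.15). Rpl36al, a paralog of Rpl36a, was at 707, 860 and 699 CPM against 345, 355 and 299 CPM (0.55, SE 0.125, edgeR adjusted p = 3.03e-04).

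Set against their parent genes, which share the library and the cell, several paralogs took a larger part in the enterocyte-like clusters than in the ISC-like class. UMIs of Rps27l equalled 32.0% ± 3.46 (SD, n = 3 libraries) of those of Rps27 in the ISC-like class, 35.6% in the TA-like class, 41.1% in the Rbp7 cluster, 57.2% in the Ms4a18 cluster, 99.2% in the S100g cluster and 126% ± 11.2 in the Dnase1 cluster. Rps27 itself was at 2541, 2886 and 3282 CPM in the ISC-like class and at 423, 469 and 476 CPM in the Dnase1 cluster. Rps27l was at 587, 564 and 564 CPM there. The tuft-like class was at the other end, with Rps27l at 24.4% of Rps27. In goblet-like and enteroendocrine-like cells Rps27l stood at 34.5% and 34.4%. A high ratio was not limited to enterocyte-like clusters. In Paneth-like cells Rps27l stood at 71.7% on average, above the Ms4a18 cluster, with 59.3% to 94.8% over the libraries. Rpl36al rose in the same order of clusters, from 31.4% ± 3.61 of Rpl36a in the ISC-like class to 129% ± 8.42 in the Dnase1 cluster. It stood at 67.1% in goblet-like, 52.5% in Paneth-like, 49.7% in enteroendocrine-like and 59.8% in tuft-like cells. Rps4l stood at 2.57% ± 0.441 of Rps4x in the ISC-like class and 23.2% ± 6.67 in the Dnase1 cluster, and it was higher in WT (30.9%) than in either cKO library (20.2% and 18.6%) in the Dnase1 cluster. In goblet-like, Paneth-like, enteroendocrine-like and tuft-like cells Rps4l stood at 3.99%, 1.81%, 6.93% and 6.78%.

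Rpl22l1 and Rpl7l1 showed smaller steps, and Rpl22l1 did not rise throughout the order of clusters. Rpl22l1, the paralog of Rpl22, stood at 47.0% ± 3.57 of its parent in the ISC-like class and 49.5% ± 2.30 in the whole enterocyte-like class. It was at 44.7% ± 3.46 in the Rbp7 cluster and 41.4% ± 1.44 in the Ms4a18 cluster, below the ISC-like class in each library. In the S100g and Dnase1 clusters it was higher, at 60.0% ± 2.28 and 61.8% ± 2.51. The ISC-like against enterocyte-like log2 difference of Rpl22l1, 1.64 (SE 0.141), was near the 1.72 (SE 0.174) of Rpl22. In Paneth-like and tuft-like cells Rpl22l1 stood at 43.2% and 46.0%, and in goblet-like and enteroendocrine-like cells at 55.0% and 53.1%. Rpl7l1 stood at 5.08% ± 0.798 of Rpl7 in the ISC-like class, 9.44% ± 1.15 in the enterocyte-like class and 13.4% ± 1.71 in the Dnase1 cluster. Rps27rt, a retrocopy of Rps27, stayed between 7.35% and 9.42% over the 7 classes, and its counts are uncertain because reads may be split between such copies. Tissue-restricted paralogs were nearly absent. Rpl3l, the muscle paralog of Rpl3, had 5, 0 and 1 UMIs, and Rpl39l, the testis paralog of Rpl39, had 18, 1 and 1. Rpl10l and the minor symbol Rps12l1 had 0 UMIs in the kept cells of every library, which allows up to 3 counts per library.

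**Figure D3:**
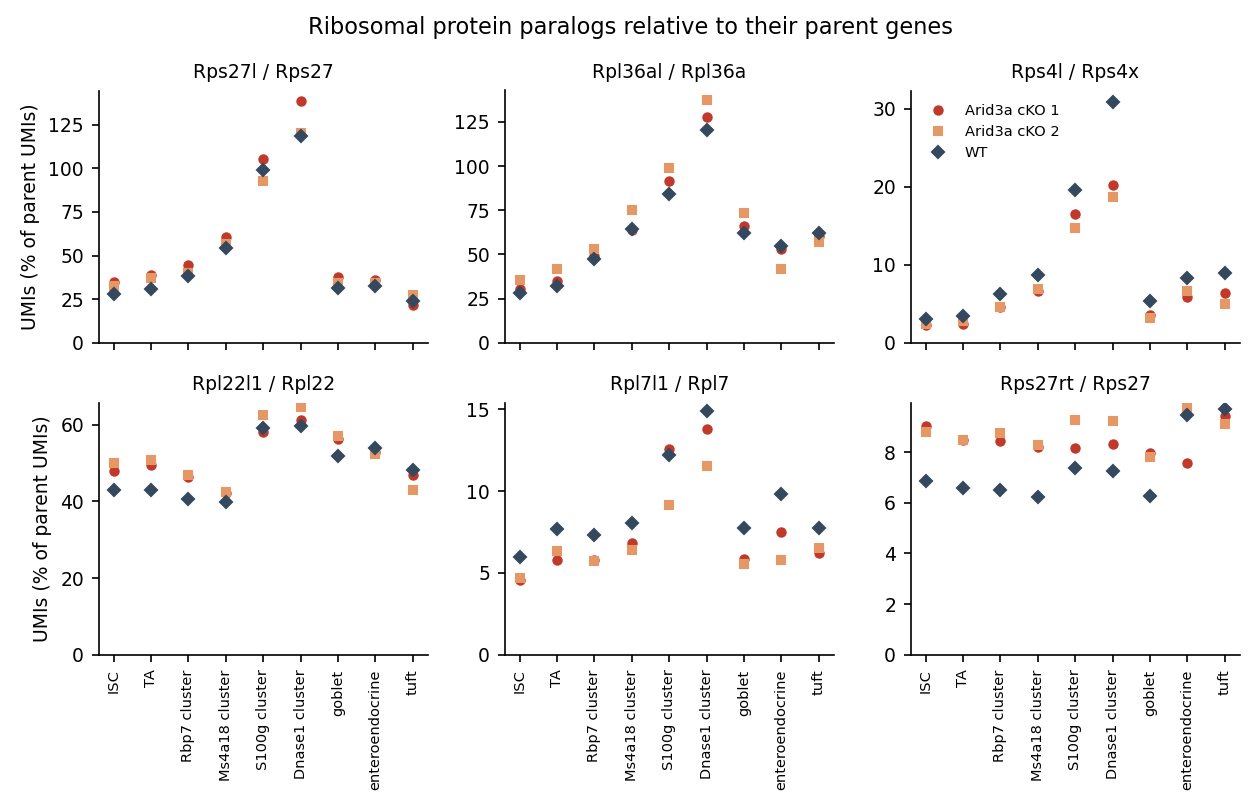
UMIs of 6 paralogs as a percent of the UMIs of their parent gene (y axis, each panel from 0) in ISC-like, TA-like, goblet-like, enteroendocrine-like and tuft-like cells and in 4 other clusters named by leading gene (x axis), with 1 symbol per library. Rps27l and Rpl36al pass their parents in the Dnase1 cluster, at 126% and 129% on average.

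The start sites of these genes were read to see which carry the TOP motif, defined as a C at the annotated start followed by at least 4 further bases that are C or T on the transcribed strand; the other strand was not searched. RefSeq start sites on GRCm38.p6 were at hand for 67 of the 92 genes, and 14 (20.9%) had the motif at 1 start or more, against 813 of 27025 genes (3.01%). By group these were 6 of 23 small subunit genes, 6 of 32 large subunit genes, 1 of 2 stalk genes and 1 of 8 paralogs. An annotated start a few bases off the true one hides a tract, so a missing motif says only that these letters are not at this position. With the start of the motif allowed within 5 bases of the annotated one, 30 of the 67 genes (44.8%) held it, against 21.2% of all genes. Of those with the motif, 5 core genes and the paralog Rps27rt are shown because their class or cKO values are described. Rpl22l1 is shown as a paralog without it at the annotated start, although it holds the motif within 5 bases of that start. Each window runs from 10 bases before the start through the first 20 transcribed bases, 5′ to 3′ on the gene's strand, with the tract in capitals.
Rpl15 (chr14:18270967-18270996, minus strand): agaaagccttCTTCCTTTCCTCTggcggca
Rpl35 (chr2:39005112-39005141, minus strand): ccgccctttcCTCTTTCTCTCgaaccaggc
Rpl38 (chr11:114668570-114668599, plus strand): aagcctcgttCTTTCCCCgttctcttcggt
Rps6 (chr4:86857348-86857377, minus strand): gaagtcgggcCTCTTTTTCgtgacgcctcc
Rps27 (chr3:90213629-90213658, minus strand): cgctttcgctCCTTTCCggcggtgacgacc
Rps27rt (chr9:114982720-114982749, minus strand): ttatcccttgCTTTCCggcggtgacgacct
Rpl22l1 (chr3:28805498-28805527, plus strand): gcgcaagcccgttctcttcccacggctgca
The parent gene Rps27 and its retrocopy Rps27rt both begin with a tract. The 14 genes with the motif had a median ISC-like against enterocyte-like log2 difference of 1.69, and the 50 tested genes with a start but no motif 1.64.

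TA-like cells resembled ISC-like cells in their distance from enterocyte-like cells. There 84 genes were higher and 1 was lower in the TA-like class (all genes 36.8% higher and 40.7% lower), with a median log2 difference of 1.36. Rpl12 (2.20), Rpl3 (2.00), Rpl14 (1.84) and Rpl27a (1.79) again led, and Rps4l (-0.72), Rps27l (-0.22), Rps3a3 (0.40) and Rpl36al (0.44) were lowest. Compared directly, 86 of the 87 genes had a lower value in the TA-like than in the ISC-like class, with a median of -0.28. edgeR called 0 higher and 2 lower (all genes 6.61% higher and 7.25% lower), and 16 were called, all lower, by DESeq2. The genes called by edgeR were Rpl37rt, a retrocopy at 98.0, 109 and 97.4 CPM in TA-like and 127, 141 and 117 CPM in ISC-like cells (log2 difference -0.42, edgeR adjusted p = 2.74e-04), and Rps27rt, at 180, 203 and 192 CPM against 229, 254 and 225 CPM (-0.38, edgeR adjusted p = 5.89e-04). Rpl6l (-0.42) and Rps26 (-0.39) had similar values without a call. Rpl7l1, at 0.10, was the gene with a value above 0, and Rps3a3 (-0.01), Rps4l (-0.07) and Rps19bp1 (-0.08) were close to 0 and turned above it by total UMIs. By total UMIs 86 genes were higher and 0 lower in TA-like than in enterocyte-like cells. That scaling moves all genes of a class together, as the TMM factors were 1.39 to 1.47 in TA-like and 0.851 to 0.890 in enterocyte-like cells.

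Goblet-like and tuft-like cells were both higher than enterocyte-like cells for most of the set. In goblet-like cells 79 genes were higher and 2 lower (all genes 34.3% and 34.5%), with a median log2 difference of 0.81. Rpl12 (1.501), Rpl3 (1.41), Rpl27a (1.25) and Rpl14 (1.21) led, and Rps4l (-0.85), Rps3a3 (-0.62), Rps27l (-0.48) and Rpl7l1 (0.10) were lowest. In tuft-like cells 58 were higher and 2 lower (all genes 24.5% and 28.4%), with a median of 0.48. Rpl3 (1.03), Rps21 (1.03), Rps19 (1.02), a gene mutated in Diamond-Blackfan anaemia, and Rps27rt (0.97) led that contrast. Rps27l (-1.06) and Rps4l (-0.60) were lower, and Rpl7l1 (-0.23) and Rpl38 (-0.05) had the next lowest values. Leaving out cKO 2, which had 20 tuft-like cells, brought the tuft count to 31, and by total UMIs 82 genes were higher and 0 lower in tuft-like and 84 higher and 1 lower in goblet-like cells. Leaving out TMM moves all genes of a class together. TMM factors were 1.40 to 1.51 in tuft-like, 1.10 to 1.13 in goblet-like and 0.851 to 0.890 in enterocyte-like cells. The share of all genes called by total UMIs is not reported here.

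The Paneth-like and enteroendocrine-like contrasts depended on scaling. With TMM, 78 genes were higher and 1 was lower in Paneth-like cells (all genes 26.2% and 30.3%) with a median log2 difference of 0.89, but by total UMIs 0 were higher and 77 lower with a median of -0.89 while the median of all genes lay at -1.80. Rpl12 (1.598), Rpl32 (1.36), Rpl3 (1.35) and Rps19 (1.33) led with TMM, and Rps4l (-1.75), Rpl7l1 (-0.05), Rps3a3 (0.21) and Rps19bp1 (0.30) were lowest. With TMM the comparison is relative to most other genes of the class, whereas the share of all UMIs given above was lower in Paneth-like than in enterocyte-like cells. In enteroendocrine-like cells 0 genes were higher and 35 lower with TMM (all genes 37.7% and 33.2%) with a median of -0.26, but 47 were higher and 2 lower by total UMIs, with a median of 0.55 against 0.92 over all genes. DESeq2 called 11 higher and 17 lower, and 11 were called lower without the WT library. Rpl12 (0.27), Rpl3 (0.23), Rpl27a (0.14) and Rpl37a (0.14) had the highest values, and Rps27l (-1.63), Rps4l (-1.34) and Rpl7a (-0.82) were among the lowest values with TMM.

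Genes that build ribosomes were also higher in ISC-like than in enterocyte-like cells. Of 30 ribosome assembly factors 28 were higher and 2 lower, with a median log2 difference of 2.81. Gar1, of the H/ACA snoRNP, was at 5.004, Nle1, a large subunit assembly factor, at 4.68, Nop56, of the box C/D snoRNP, at 4.28 and Gnl3, nucleostemin, at 4.15. All 9 snoRNA host genes, whose introns carry the small nucleolar RNAs that guide rRNA modification, were higher (median 2.15), led by Snhg5 (3.70), Snhg12 (3.47), Snhg1 (3.34) and Gas5 (2.99). Of 14 genes of the RNA polymerase I machinery and the Myc family 12 were higher and 1 lower (median 1.13). Myc, a transcription factor known to drive ribosome production, was at 6.11, Mycn at 4.09, and the polymerase I subunit genes Polr1b and Polr1e at 3.72 and 3.56. Each gene named here passed the test, with an edgeR adjusted p of 3.08e-09 or less.

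Translation factors had a smaller median. Of 27 listed, 21 were higher and 2 lower in the ISC-like class, with a median of 0.83. Eif4ebp1, a repressor of cap-dependent initiation, was at 2.05, the elongation factor genes Eef1b2 and Eef1g were at 1.81 and 1.69, and Pabpc1, which binds the poly(A) tail, was at 1.62. Of the 77 mitochondrial ribosomal protein genes tested, 43 were higher and 18 lower with a median of 0.27, led by Mrps27 (1.63), Mrpl19 (1.604), Mrps36 (-1.44) and Mrps22 (1.2025). Ribosomal proteins outside the symbol rule differed among themselves. Rack1, a scaffold on the small subunit, was higher (1.77), and Fau, a fusion with a small subunit protein, was lower (-0.39, edgeR adjusted p = 0.0108). The 4 rRNA-like transcripts tested were all lower in the ISC-like class, with Gm42418 at -1.89 and Lars2, whose reads include rRNA-like sequence, at -1.76. TOP motifs were found at the starts of 2 of 20 translation factor genes, 2 of 7 snoRNA host genes, 0 of 24 assembly factor genes and 0 of 69 mitochondrial ribosomal protein genes. Between TA-like and ISC-like cells 8 of the 9 snoRNA host genes were lower, with Snhg3 (-0.86), Zfas1 (-0.85), Gas5 (-0.65) and Epb41l4aos (-0.64) lowest, and Myc was at -0.79.

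Loss of Arid3a was examined next. The ribosomal protein share of all UMIs was higher in both cKO libraries than in WT, by 0.961 and 0.833 percentage points. Applying the cluster mix of the WT library to each library, an alternative chosen after seeing the data, left shares of 15.3% and 15.1% against 14.4%. In the ISC-like class the cKO libraries were above WT by 0.942 and 1.37 points, in the enterocyte-like class by 1.26 and 0.360 points and in the goblet-like class by 0.911 and 1.36 points. In the TA-like class both were below WT, by 0.322 and 0.180 points on shares of 24.1% and 24.2% against 24.4%, and by 0.546 and 0.537 points of non-mitochondrial UMIs, but the mean difference turned positive, at 0.0833 to 0.545 points, with wider cell limits, without integration or with the ribosomal protein genes kept in the clustering. The enteroendocrine-like share was 10.3% and 9.37% in the cKO libraries against 6.25% in WT, a mean difference of 3.60 points. As a mean over cells it was 7.34%, 6.53% and 5.11%, a difference of 1.83 points. The median enteroendocrine-like cell held 5.35%, 4.76% and 4.14%, and the 95th percentile lay at 21.3%, 21.9% and 12.6%. The libraries thus differed more among cells of high share than at the median. In the Paneth-like class one cKO library was above and the other below WT. Each difference sets 2 cKO libraries against a single WT library, so genotype cannot be told apart from that library, whose mitochondrial share was 5.72% and rRNA-like share 4.15% of UMIs, against at most 4.87% and 3.25% in the cKO libraries.

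For single genes the test had 1 residual degree of freedom, and the WT library was assumed to vary as the cKO libraries do. Over all kept cells edgeR called 0 of 89 ribosomal protein genes in either direction (all genes 0.24% higher and 0.456% lower), DESeq2 also called 0, and 20 had an unadjusted p under 0.05, as did 11% of all genes. The median log2 difference was 0.16, against 0.00 over all genes, with 72 genes above 0 and 17 below. In the enterocyte-like class 0 of 87 were called (all genes 0.535% and 1.05%; DESeq2 0), 25 had an unadjusted p under 0.05 (all genes 12.6%), and the median was 0.23. In the ISC-like class 0 of 88 were called (all genes 0.14% and 0.312%; DESeq2 0), 9 had an unadjusted p under 0.05 (all genes 6.6%), and the median was 0.11. In the TA-like class 0 of 88 were called (all genes 0.509% and 0.603%; DESeq2 0), 6 had an unadjusted p under 0.05 (all genes 6.87%), and the median was 0.00. In the goblet-like class 0 of 86 were called (all genes 0.576% and 0.648%; DESeq2 0), 7 had an unadjusted p under 0.05 (all genes 8.69%), and the median was 0.15. The enterocyte-like count of 0 became 13, all higher, without integration of the libraries, and 6 without the filter on low counts. Without integration a cluster of 1293 cells led by Ms4a18 met no class, so the enterocyte-like class was a different set of cells.

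Counted by library and without a test, most of the abundant genes lay above WT in several classes but not in all. Among genes at a mean of 50 CPM or more, both cKO libraries were above WT for 62 and below for 13 of 85 ribosomal protein genes over all kept cells, where 52.5% and 25% of all genes did so. In the ISC-like class the counts were 59 and 15 of 85 (all genes 42.1% and 26.7%), in the enterocyte-like class 66 and 7 of 82 (46.9% and 31.6%), in the goblet-like class 67 and 9 of 84 (41.4% and 30.5%) and in the TA-like class 39 and 25 of 85 (46.2% and 23.1%). The TA-like counts were near those of all genes. Of 82 genes in the enteroendocrine-like class 80 were above WT in both cKO libraries and 0 below (45.3% and 24.4%), and of 85 in the tuft-like class 74 were above and 4 below (34% and 30.1%). In Paneth-like cells 0 of 79 were above and 1 below (13.3% and 20%), and for the other 78 WT lay between the cKO libraries. In the Isg15 cluster 12 of 80 were above and 19 below (31.5% and 33.5%). These counts share the WT library, and ribosomal protein genes move together within a library, so they are not independent.

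**Figure D4:**
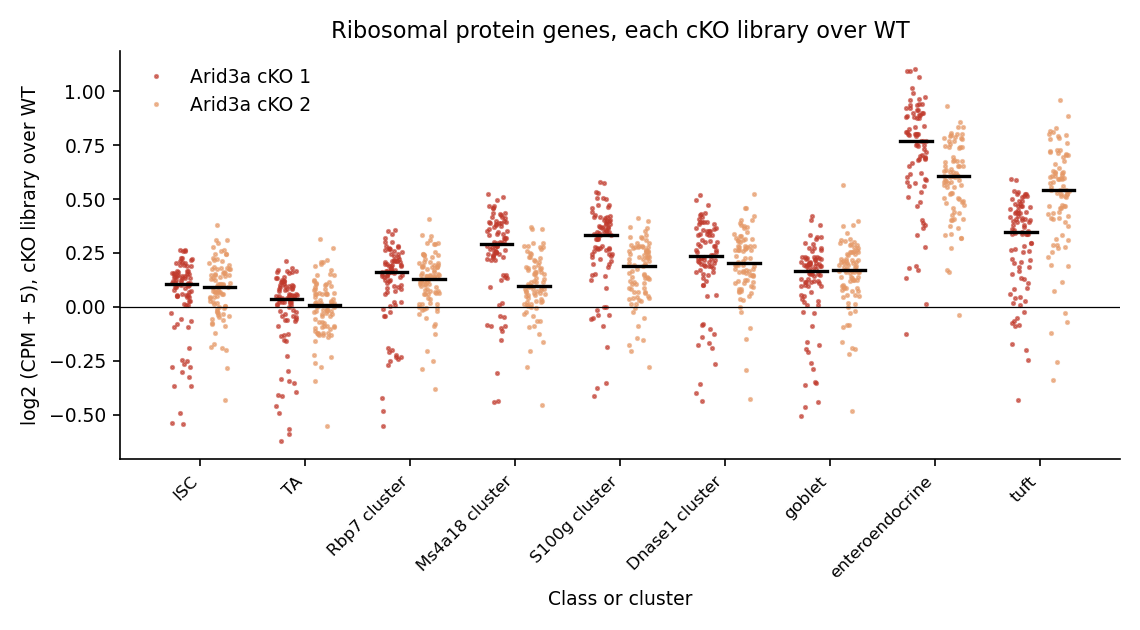
Log2 ratio of CPM plus a pseudocount of 5 CPM for each cKO library over WT (y axis), by class or cluster (x axis), with 1 point per ribosomal protein gene at a mean of 50 CPM or more and a bar at the median. The medians are 0.11 and 0.09 in ISC-like, 0.04 and 0.01 in TA-like and 0.77 and 0.61 in enteroendocrine-like cells for cKO 1 and cKO 2.

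The genes furthest above WT were large subunit genes. Rpl15 was at 787 and 834 CPM in the cKO libraries and 634 CPM in WT over all kept cells, log2 ratios of 0.31 and 0.39 (edgeR adjusted p = 0.176). Rpl29 was at 1544 and 1576 against 1291 CPM, Rpl7 at 1062 and 1049 against 884 CPM, Rpl24 at 751 and 791 against 633 CPM and Rpl10a at 1165 and 1146 against 977 CPM. Both cKO libraries exceeded WT for each, with none passing the test. Rpl15 stood highest in ISC-like cells too, at 1467 and 1591 against 1221 CPM, followed there by Rps6, the substrate of S6 kinase, at 998 and 990 against 834 CPM. In enterocyte-like cells Rpl24 came first at 378 and 363 against 275 CPM, with Rpl15, Rpl7, Rpl21 and Rpl27a behind it.

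Several of the genes furthest below WT have short coding sequences. Rpl35 was at 388 and 358 CPM in the cKO libraries against 481 CPM in WT over all kept cells (edgeR adjusted p = 0.206). Rps29 was at 2231 and 2616 against 3144 CPM, Rpl38 at 876 and 1088 against 1238 CPM and Rps28 at 1241 and 1512 against 1690 CPM. Rps4l was at 103 and 98.0 against 117 CPM. None passed the test. Rpl35 was also lowest in TA-like cells, at 591 and 567 against 832 CPM, with a log2 difference of -0.54 (SE 0.164) and the smallest edgeR adjusted p of the set in that class, 0.0814. Rps29 was at 3174 and 3842 against 4879 CPM in TA-like cells, 3681 and 4407 against 5361 CPM in ISC-like cells and 1177 and 1264 against 1516 CPM in enterocyte-like cells.

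Because Rps29, Rpl38 and Rps28 encode some of the shortest ribosomal proteins, the ratios were set against coding length, a comparison chosen after their values were seen and given as a description. Over 83 genes with an annotated coding sequence and at least 50 CPM, Spearman's rho between coding length and the log2 ratio over all kept cells was 0.74 for cKO 1 and 0.44 for cKO 2, and the ratios share the WT library. Over 2511 other genes rho was -0.07 and -0.39. The 10 shortest coding sequences, of 138 to 291 bases (Rpl41, Rpl39, Rps29, Rps28, Rpl38, Rps21, Rps27, Rps27rt, Rpl37a and Rpl37), were below WT in both cKO libraries for 8 genes and above for 1, Rps27rt. Of the other 73 genes 4 were below and 60 above. The median ratio of the 10 was -0.27 in cKO 1 and -0.05 in cKO 2, against 0.16 and 0.11 for the rest. Among 126 other short genes, with no longer coding sequence than these, 27 were below WT in both cKO libraries and 58 above. Of the 10 shortest, 9 were below WT in both cKO libraries in ISC-like and in TA-like cells, 5 in goblet-like and 4 in enterocyte-like cells. Other short genes did so for 34 of 119 in ISC-like and 25 of 118 in TA-like cells. In goblet-like cells 39 of 114 other short genes did so, and in enterocyte-like cells 19 of 103. The goblet-like and enterocyte-like counts are thus less set apart from other short genes. The rank correlation with length was not weaker in enterocyte-like cells. For cKO 1 and cKO 2, rho over the ribosomal protein genes was 0.78 and 0.49 there. It was 0.74 and 0.43 in ISC-like, 0.74 and 0.45 in TA-like and 0.64 and 0.37 in goblet-like cells. Over other genes it was -0.28 and -0.38, 0.11 and -0.33, 0.14 and -0.35, and 0.03 and -0.30 in the same order.

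**Figure D5:**
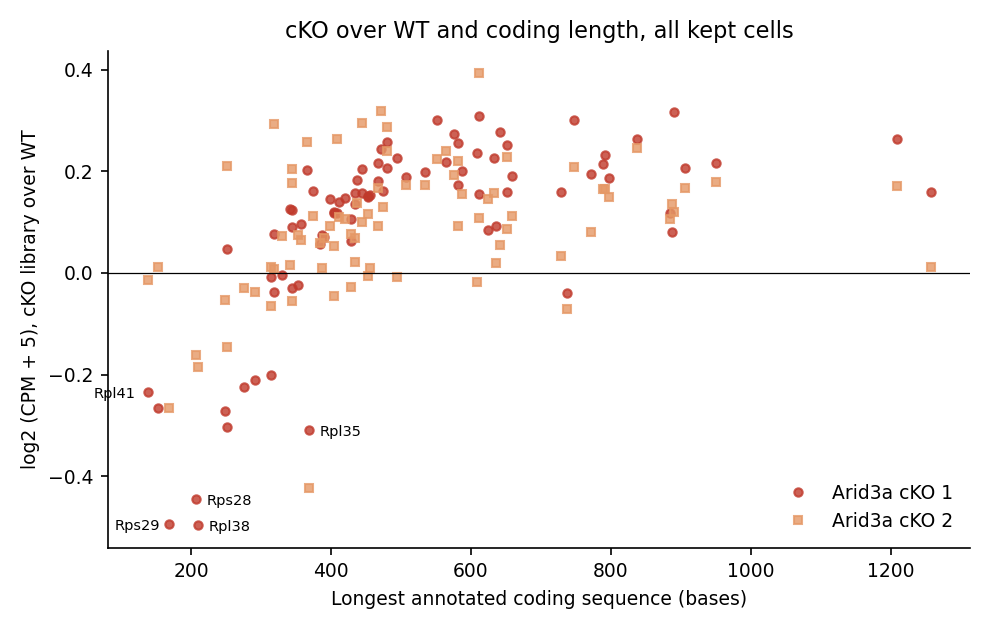
Log2 ratio of CPM plus a pseudocount of 5 CPM for each cKO library over WT in all kept cells (y axis) against the longest annotated coding sequence in bases (x axis), with 2 points for each of 83 ribosomal protein genes. Rps29, Rpl38 and Rps28 lie lowest among the short genes, and Rpl35 is low at a greater length.

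Single clusters and the smaller classes were then fitted, an alternative chosen after seeing the data. In the Dnase1 cluster, which had 287 to 361 cells per library, 8 of 87 genes were higher and 1 was lower (all genes 1.11% and 1.48%), and 44 had an unadjusted p under 0.05 (all genes 12.5%). Rps6 was at 93.3 and 89.1 CPM in the cKO libraries against 63.6 CPM in WT, a log2 difference of 0.49 (SE 0.113, edgeR adjusted p = 0.00929). Rpl24 (0.44), Rpl10a (0.42), Rps27a (0.39), Rpl15 (0.39), Rpl21 (0.37), Rpl7 (0.37) and Rpl17 (0.37) were the other genes that were higher, with edgeR adjusted p from 0.0171 to 0.0478. Rps4l, at 102 and 90.5 against 124 CPM, was lower (-0.39, edgeR adjusted p = 0.0472). Immune markers were below 1 CPM in this cluster in every library, and rRNA-like transcripts made up 6.11% and 5.25% of its UMIs in the cKO libraries and 8.74% in WT, whose part in the result was not tested.

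In the enteroendocrine-like class 3 of 85 genes were higher and 0 lower (all genes 0.622% and 0.435%), 65 had an unadjusted p under 0.05 (all genes 8.35%), and the median log2 difference was 0.60. Rplp0 was at 1466 and 1225 CPM in the cKO libraries against 685 CPM in WT (0.88, SE 0.229, edgeR adjusted p = 0.0375). Rps2 was at 1957 and 1586 against 909 CPM (0.87, SE 0.227, edgeR adjusted p = 0.0384), and Rpl12 at 1290 and 1039 against 602 CPM (0.85, SE 0.231, edgeR adjusted p = 0.0473). The class held 47, 42 and 88 cells, its rRNA-like share was 4.26%, 4.22% and 6.09% of UMIs and its 9 stromal or endothelial markers, of which 2, 2 and 3 were detected, summed to 278, 279 and 335 CPM, whose part in the result was not tested. Vim, which is on that marker list, was also among the leading genes of this class. By edgeR 0 genes were called in the Rbp7 cluster (all genes 0.13% and 0.473%), the Ms4a18 cluster (0.87% and 1.66%), the S100g cluster (0.906% and 1.49%) and the tuft-like class (0.0725% and 0.189%). At an unadjusted p under 0.05 there were 36, 14, 32 and 1 genes in that order, against 11.6%, 11.4%, 12.4% and 3.09% of all genes, and no other tool was run on these.

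The difference between ISC-like and enterocyte-like cells was compared between genotypes in the same fit. For 86 of 87 genes the cKO difference was the smaller one, with a median of -0.15 on the log2 scale against -0.02 over all genes. How many of all genes lay on that side is not reported here, and ribosomal protein genes move together within a library. None of the 87 was called by edgeR (all genes 0.0307% higher and 0.0153% lower) or by DESeq2, and 0 had an unadjusted p under 0.05 (all genes 3.96%). In shares the difference was 21.3 and 22.6 percentage points in the cKO libraries and 21.6 in WT.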

How the data were processed

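The authors aligned and counted the 10x Genomics reads with Cell Ranger and deposited raw UMI counts per gene and barcode, 1 matrix for each of 3 libraries. The submitters' processing notes name GRCh38 and hg19, which are human builds, and the mouse build used for counting is not given in the sources used here. Features were joined to GENCODE M21 (GRCm38) by gene ID, and start sites came from RefSeq (GRCm38.p6). The ribosomal protein genes and the gene lists were chosen with earlier results of these data known.

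Barcodes with at least 1000 genes and at most 15% mitochondrial UMIs were kept. Libraries were integrated with Seurat 5.3.0 (CCA, 3000 features, 2000 variable genes, 30 principal components, resolution 0.3) with 539 genes left out. These were the ribosomal protein genes and pseudogenes, the mitochondrial ribosomal protein genes and the genes of the other lists. The alternative with the ribosomal protein genes kept in the clustering left none of them out. Doublets were marked with Scrublet in scanpy 1.11.5 (110 cells, 1.97%) and kept. Clusters were named from fixed marker lists. UMIs were summed per library and class and tested with edgeR 4.0.16 (filterByExpr, TMM, quasi-likelihood test, Benjamini-Hochberg adjustment over all genes tested, threshold 0.05), in a separate fit of 2 cKO libraries against 1 WT library for each class, and for class contrasts in 1 fit of all 7 classes with library as a block. Replicates are biological by the series design. In cKO against WT the spread was estimated from the 2 cKO libraries alone. The script was tested on simulated data. Alternatives were DESeq2 1.42.0, total-UMI scaling, TMM without the ribosomal protein genes, no low-count filter, no block, each library left out, wider cell limits (500 genes, 25%), doublets removed, no integration, and ribosomal protein genes kept in the clustering.

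Genes were named by rule: the stalk genes and Rpsa; paralogs and parents; in each class contrast the 4 highest and 4 lowest; in cKO against WT up to 5 per direction with both cKO libraries on the same side of WT, at a mean of 50 CPM or more, by the smaller log2 ratio (pseudocount 5 CPM); genes called; and up to 4 per other list. R 4.3.3 and Python 3.11.15 were used. Some genes named by this rule are not reported here.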

Additional observations from a re-analysis of the deposited data

Results flagged for a closer look

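The ribosomal protein share of UMIs in TA-like cells was lower in the cKO libraries than in WT, by a mean difference of -0.251 percentage points (-0.541 of non-mitochondrial UMIs), while in the ISC-like, enterocyte-like and goblet-like classes both cKO libraries lay above WT. It stands out because both cKO libraries moved one way in one class and the opposite way in the others. The difference between the classes was not tested, it rests on 1 WT library, and it did not keep its sign under 3 other ways of forming the class.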

How the results depend on the processing

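Alternatives gave 187 values for summaries, of which 146 stayed within the limits set for them, 34 moved beyond them and 7 changed direction. No paired analysis was possible because cKO and WT have just 1 replicate number in common. Calls in cKO against WT, 0 over all kept cells and in the 4 classes that follow, became 7 over all kept cells (4 higher, 3 lower) without the low-count filter. In the enterocyte-like class they became 3 by total UMIs, 6 without the filter, 4 with wider cell limits and 13 without integration (where 1293 cells led by Ms4a18 met no class). In the ISC-like class they became 1 by total UMIs, 4 without the filter, 2 without integration and 1 with the ribosomal protein genes clustered. In the TA-like class they became 2 by total UMIs, and in the goblet-like class 1 without doublets. TA-like against ISC-like cells gave 16 calls by DESeq2, 1 by total UMIs, 0 without the library block and 1 with wider limits. By total UMIs 77 genes turned lower in Paneth-like cells. The 35 lower enteroendocrine-like calls became 49 by total UMIs, 20 with wider limits and 35 without integration, mostly higher in each case, and 20 without the block, 83 without doublets (where the class held 66 cells in place of 177, and 231 cells led by Cck and Gip met no class), 63 with the genes clustered and 11 to 31 when a library was left out, all lower. Tuft-like calls were 36 without the filter and 31 to 56 with a library left out. The tuft-like class was not found without doublets.

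The cKO minus WT share, 0.897 points, was 0.765 of non-mitochondrial UMIs, 0.990 as a mean over cells and 1.53 with wider limits. In TA-like cells -0.251 points was -0.541 of non-mitochondrial UMIs and turned to 0.0833 with wider limits, 0.140 without integration and 0.545 with the genes clustered. The ISC-like minus enterocyte-like share, 21.8 points, was 22.7 of non-mitochondrial UMIs, 22.7 over cells, 23.7 without integration and 20.8 with the genes clustered. Without integration the enterocyte-like class lacked a cluster led by Ms4a18 that met no class. Among single genes, Rps27 in enterocyte-like cKO cells turned to 0.0877 with wider limits. Rps27l in ISC-like against enterocyte-like cells turned to 0.0897 by DESeq2, 0.563 by total UMIs, 0.198 with wider limits and 0.0347 with the genes clustered. Between TA-like and ISC-like cells Rps19bp1 turned to 0.0017 by total UMIs, Rps4l to 0.0148 by total UMIs and 0.0165 without integration, and Rps3a3 to 0.0659 by total UMIs, 0.0192 without the filter, 0.00196 without the block, 0.0792 with wider limits and 0.0379 with the genes clustered, with -0.126 to 0.108 when a library was left out. The cause of these changes was not tested. With 1 WT library, the spread between control animals is unknown and small differences between genotypes cannot be told from it.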
